A study of Mus musculus with 16 samples.

Results

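The MYC and MAX network is the family of basic helix-loop-helix leucine zipper transcription factors that pair with MAX or with the MAX-like protein MLX. Its 10 genes followed here were Myc, Mycl, Mycn, Max, Mnt, Mxd1, Mxd3, Mxd4, Mxi1 and Mlx. They are 10 of 32989 identifiers in a table of 3′ RNA-seq counts. All 10 were chosen by name, not by their values, though earlier results of the series were known. Of these, 8 had a mean count of at least 5 and were tested, and Mycl and Mycn fell below that limit. The cells came from organoid cultures of hair follicle stem cells (HFSCs) made from telogen epidermis of wild-type C57BL/6J mice. The organoids grew for 2 weeks in the 3D-3C system, some of them exposed for 72 h to the acetylated polyamine N1-acetylspermidine (N1-AcSpd), and cells were then sorted by the integrin α6 and the surface protein CD34. The 4 groups were untreated α6+/CD34- progenitors, untreated α6+/CD34+ HFSCs, and both cell types after N1-AcSpd. Each of 4 mice gave 1 library to every group, which makes 16 libraries of sorted, bulk RNA from cultured cells.

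MYC, MYCN and MYCL bind DNA as dimers with MAX and raise the transcription of genes for ribosome biogenesis, nucleotide and polyamine synthesis and cell growth. MXD1, MXD3, MXD4, MXI1 (also called MXD2) and MNT compete for MAX, bind the same sites and recruit SIN3 and histone deacetylases to repress them. In skin, forced MYC expression is known to push epidermal stem cells out of their niche and towards differentiation, and Odc1, the gene of the first enzyme of polyamine synthesis, is a textbook MYC target.

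The site that these dimers share is the E-box, a palindrome of 6 bases that reads CACGTG on both strands. It was searched in RefSeq promoter windows on GRCm38.p6, each running from 250 bases before to 50 bases after a gene's start. Of 27025 genes with such a window, 8.09% held the E-box. A window existed for 9 of the 10 members, all but Myc, and 4 of these 9 held the E-box, namely Max, Mnt, Mxd4 and Mlx. Mycl, Mycn, Mxd1, Mxd3 and Mxi1 did not hold these letters in this window. The 4 sites are shown with their flanks because they are the letters the network itself reads, 5′ to 3′ on the strand that RefSeq gives for each gene, with the E-box in capitals. That sense matched a GENCODE transcript for Mnt, Mxd4 and Mlx, whereas for Max no transcript held the end of the window.
Max, chr12:76962229-76962268, minus strand: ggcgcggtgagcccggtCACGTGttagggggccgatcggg
Mnt, chr11:74830784-74830823, plus strand: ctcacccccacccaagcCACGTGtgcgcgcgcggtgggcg
Mxd4, chr5:34187907-34187946, minus strand: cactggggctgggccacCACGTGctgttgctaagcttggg
Mlx, chr11:101087233-101087272, plus strand: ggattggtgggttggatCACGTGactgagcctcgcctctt

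The E-box began 3 bases before the RefSeq start of Max, 40 bases before that of Mlx, 123 bases before that of Mnt and 219 bases before that of Mxd4. A match is a description of the letters, and binding was not measured. The whole windows of Mxd1 and Mxd4 follow because these MXD genes differed between the cell types in opposite directions. The Mxd1 window was 76.7% G and C and had no E-box, and the Mxd4 window was 61% G and C with its E-box in capitals.
Mxd1, chr6:86669110-86669409, minus strand: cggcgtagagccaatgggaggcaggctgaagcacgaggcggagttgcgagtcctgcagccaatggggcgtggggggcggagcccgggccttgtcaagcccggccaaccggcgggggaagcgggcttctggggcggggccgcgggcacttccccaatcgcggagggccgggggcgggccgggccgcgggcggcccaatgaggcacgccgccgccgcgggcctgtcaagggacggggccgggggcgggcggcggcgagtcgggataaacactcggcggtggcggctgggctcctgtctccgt
Mxd4, chr5:34187661-34187960, minus strand: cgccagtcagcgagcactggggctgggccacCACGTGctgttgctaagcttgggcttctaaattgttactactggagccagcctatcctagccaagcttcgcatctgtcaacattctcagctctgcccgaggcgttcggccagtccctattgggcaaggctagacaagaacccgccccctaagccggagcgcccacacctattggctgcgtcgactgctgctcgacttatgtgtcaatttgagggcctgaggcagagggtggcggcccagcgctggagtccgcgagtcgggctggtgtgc

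Library totals lay between 15480075 and 29074855 UMIs (unique molecular identifiers, tags that let each captured RNA be counted once) and were higher in most CD34- libraries. Levels are given in CPM, the count scaled to the library's TMM-adjusted total. The sort was visible in the RNA of 9 HFSC markers, which include Cd34 itself. Their summed level ran from 145.9 to 161.7 CPM in untreated CD34- libraries and from 528 to 691.5 CPM in untreated CD34+ libraries. Krt15 alone averaged 38.6 CPM in the former and 392.8 CPM in the latter. Melanocyte, fibroblast and immune marker lists each summed to under 13 CPM in every library. Of the endothelial markers, Pecam1 stood between 1686 and 2053 CPM in all libraries, while Kdr reached at most 0.36 CPM. Genes were called at a Benjamini-Hochberg adjusted p under 0.05 from edgeR's quasi-likelihood test in 1 fit of 16 libraries. Of the 9 HFSC markers, 6 were called higher in HFSCs in both conditions, beside 16.1% and 16.5% of all genes. Itga6 was called lower (means of 62.8 CPM in untreated progenitors and 49.7 CPM in untreated HFSCs), and 2 markers were not called.

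The first question was which network genes separate HFSCs from progenitors. In untreated cells 3 of the 8 tested members were called, 37.5% of them, beside 32.1% of all 19049 tested genes. The higher calls numbered 1 of 8 (16.1% of all genes) and the lower calls 2 of 8 (also 16.1% of all genes). After N1-AcSpd the same 3 members were called in the same directions, beside 33.3% of all genes, of which 16.5% of genes were higher and 16.8% lower. These shares of members are close to the background and are no result about the network as a group. The called members were these: Mxd1 and Myc were lower in CD34+ HFSCs and Mxd4 was higher.

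Mxd1 (ENSMUSG00000001156, chr6:86647042-86669161, minus strand), the MXD gene long linked to terminal differentiation of keratinocytes, showed the largest difference among the members. Untreated CD34- progenitors held 5.29, 5.68, 7.36 and 7.53 CPM of Mxd1 in mice 1 to 4, and untreated CD34+ HFSCs held 2.05, 2.14, 1.84 and 2.62 CPM. After N1-AcSpd the progenitors held 10.9, 8.73, 7.87 and 7.67 CPM of Mxd1 and the HFSCs 2.34, 3.02, 2.39 and 2.47 CPM. Every progenitor library lay above every HFSC library in both conditions. Mxd1 was 2.99-fold lower in untreated HFSCs (log2 fold change -1.58, SE 0.156, adjusted p = 4.55e-06, 4 of 4 mice). It was 3.44-fold lower in N1-AcSpd HFSCs (log2 fold change -1.78, SE 0.154, adjusted p = 1.56e-06, 4 of 4 mice). The call held in each of the 20 fits that left out a library or a mouse, with log2 fold changes between -1.69 and -1.44 in untreated cells and between -1.87 and -1.62 after N1-AcSpd. Thinning all libraries to the smallest total gave Mxd1 values of -1.66 and -1.75.

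Markers of epidermal differentiation moved with Mxd1. All 14 listed differentiation genes were called lower in HFSCs in both conditions, and their summed level ran from 1723 to 2369 CPM in untreated progenitors against 435.5 to 486.2 CPM in untreated HFSCs. After N1-AcSpd the sums were 2118 to 2932 CPM and 452.5 to 615.5 CPM. The part of differentiating cells in the Mxd1 difference was not tested, and in sorted bulk RNA fewer cells that express a gene and less of its RNA per cell cannot be told apart. A gene model on the same strand, Gm44292, overlaps Mxd1 over 2364 bases and had 9.4% of its count.

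Mxd4 (chr5:34173883-34187720, minus strand), an MXD repressor found in many tissues, went the other way. Its levels in mice 1 to 4 were 20.6, 20.9, 18.7 and 21.6 CPM in untreated progenitors and 27.6, 31.0, 25.4 and 30.7 CPM in untreated HFSCs. After N1-AcSpd Mxd4 stood at 15.2, 18.6, 15.5 and 20.3 CPM in progenitors and at 18.5, 23.2, 24.0 and 27.8 CPM in HFSCs. The untreated groups did not overlap, whereas the N1-AcSpd groups did, through the low HFSC library of mouse 1. Mxd4 was 1.41-fold higher in untreated HFSCs (log2 fold change 0.49, SE 0.12, adjusted p = 0.00632, 4 of 4 mice) and 1.34-fold higher in N1-AcSpd HFSCs (0.42, SE 0.12, adjusted p = 0.0143, 4 of 4 mice). The untreated call was lost without mouse 2 (Mxd4 0.46, adjusted p = 0.0599). The N1-AcSpd call was lost without the CD34+ library of mouse 4 (Mxd4 0.33, adjusted p = 0.0512), without mouse 2 (0.46, adjusted p = 0.0591) and without mouse 3 (0.35, adjusted p = 0.0994). An antisense gene model, Gm42846, overlaps Mxd4 over 1001 bases with 24.3% of its count. The Pearson r of their levels was 0.936 over 16 libraries and 0.791 after group means were removed. Gm42846 was itself called higher in HFSCs, at 0.63 untreated (adjusted p = 0.0142) and 0.78 after N1-AcSpd (adjusted p = 0.00396). No use of strand is stated for the counting, and some molecules counted for Mxd4 may be those of Gm42846. Their part in the Mxd4 difference was not tested.

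Myc (ENSMUSG00000022346, chr15:61985391-61990374, plus strand), the driver of the network, differed less between the cell types. Untreated progenitors held 41.8, 46.5, 41.4 and 40.6 CPM of Myc, and untreated HFSCs 33.2, 39.5, 37.3 and 36.3 CPM. After N1-AcSpd the progenitors held 43.3, 50.8, 45.2 and 50.3 CPM of Myc and the HFSCs 41.2, 38.5, 45.1 and 37.3 CPM. The untreated groups did not overlap, though 40.6 and 39.5 CPM lay close, and the N1-AcSpd groups overlapped through the HFSC library of mouse 3. Myc was lower in HFSCs in 4 of 4 mice in both conditions, though mouse 3 was nearly level after N1-AcSpd (45.19 and 45.14 CPM). The log2 fold change was -0.22 in untreated cells (SE 0.0745, adjusted p = 0.0366) and -0.23 after N1-AcSpd (SE 0.0744, adjusted p = 0.0308). At equal depth, after thinning, the Myc values were -0.24 and -0.27 and those of Mxd4 were 0.50 and 0.40, all still called.

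The Myc call lay near the threshold. Scaling by library totals in place of TMM gave -0.11 for Myc in both conditions (adjusted p = 0.318 and 0.306), while the median of all genes moved from 0.02 to 0.14 and from -0.01 to 0.11. The untreated Myc call was lost in 9 of 20 leave-out fits, those without a CD34- library of mouse 1 (adjusted p = 0.057), 2 (0.11) or 3 (0.0534), a CD34+ library of mouse 1 (0.107) or 4 (0.0702), or any of mouse 1 (0.15), mouse 2 (0.0789), mouse 3 (0.0677) or mouse 4 (0.0861). After N1-AcSpd it was also lost in 9 of 20, those without a treated CD34+ library of mouse 1 (adjusted p = 0.0735), 2 (0.083) or 4 (0.0928), a treated CD34- library of mouse 2 (0.092) or 4 (0.087), an untreated CD34+ library of mouse 3 (0.0594) or 4 (0.06), or all of mouse 2 (0.162) or mouse 4 (0.243). Across these fits the Myc log2 fold change stayed between -0.26 and -0.18 in untreated cells and between -0.31 and -0.16 after N1-AcSpd.

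**Figure D1:**
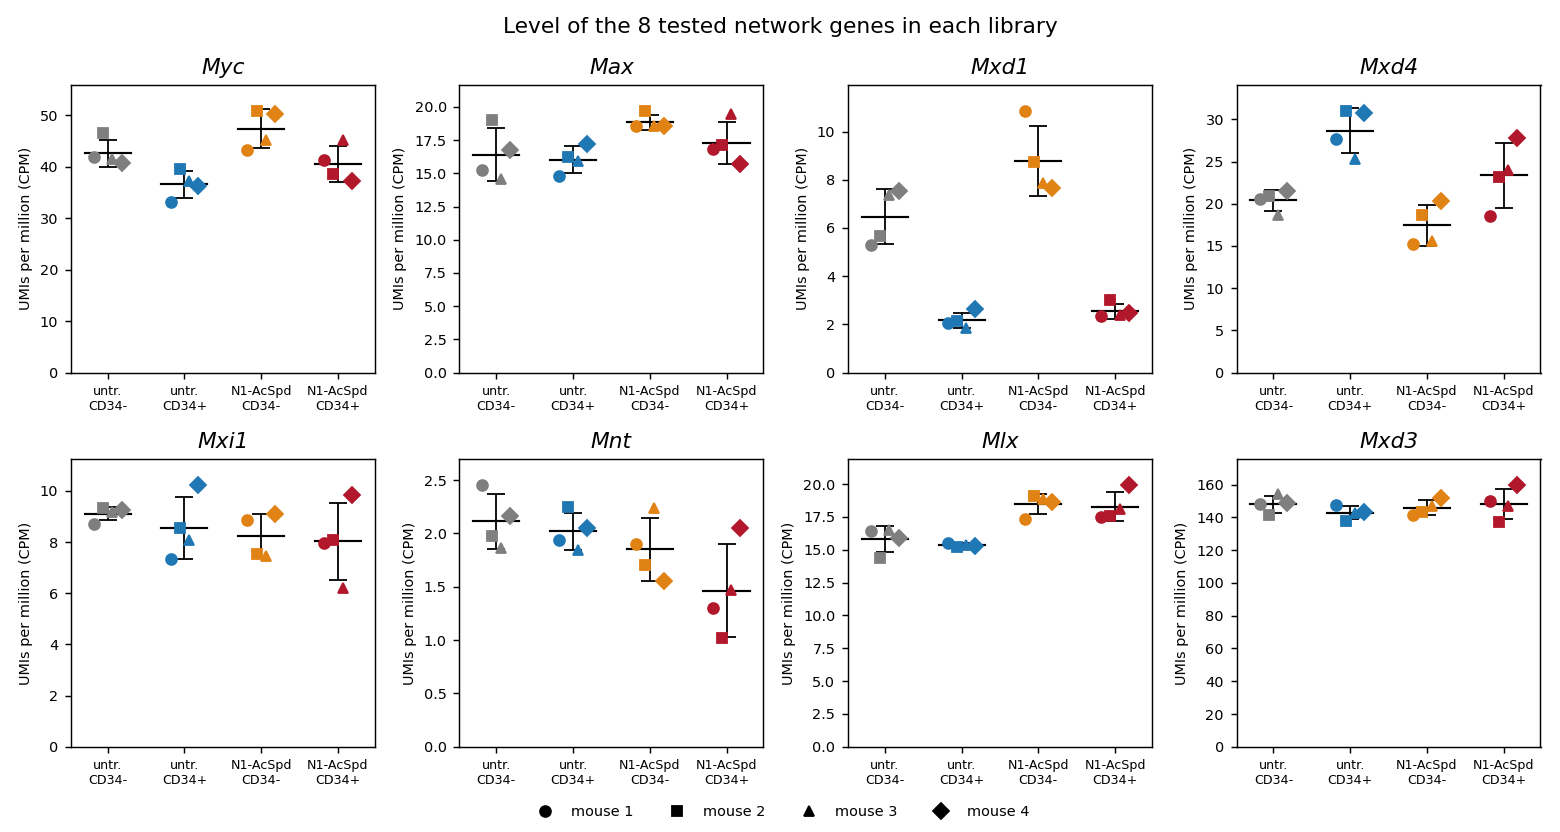
Level of the 8 tested network genes (CPM) in each of the 16 libraries, 1 panel per gene, with points for the 4 mice, a horizontal bar for the group mean and whiskers of 1 SD (n = 4). Mxd1 sits between 5.29 and 10.9 CPM in all CD34- libraries and between 1.84 and 3.02 CPM in all CD34+ libraries, Mxd4 shows the opposite order, and the Myc groups lie close together.

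Max, the gene of the shared partner of the MYC and MXD proteins, was not called between the cell types. Max averaged 16.4 ± 1.98 CPM in untreated progenitors and 16.0 ± 0.996 CPM in untreated HFSCs (SD, n = 4). After N1-AcSpd Max averaged 18.9 ± 0.559 and 17.3 ± 1.56 CPM. The log2 fold change of HFSCs against progenitors was -0.03 (95% interval -0.21 to 0.14, adjusted p = 0.837) in untreated cells and -0.13 (-0.30 to 0.05, adjusted p = 0.275) after N1-AcSpd.

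Mnt, the repressor that is present in both resting and dividing cells, was the lowest of the tested counts with 18 to 59 UMIs per library. Its mean level was 2.11 ± 0.257 CPM in untreated progenitors and 2.02 ± 0.175 CPM in untreated HFSCs (log2 fold change -0.07, 95% interval -0.46 to 0.33, adjusted p = 0.849). After N1-AcSpd Mnt stood at 1.90, 1.70, 2.24 and 1.56 CPM in progenitors and at 1.30, 1.02, 1.47 and 2.05 CPM in HFSCs. The high HFSC library of mouse 4 made these groups overlap. The Mnt difference of -0.34 (95% interval -0.74 to 0.06, adjusted p = 0.182) was called when that library was left out (-0.55, adjusted p = 0.021) or mouse 4 was left out altogether (-0.62, adjusted p = 0.0303).

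Mxi1, another SIN3-recruiting repressor, did not pass the test either. Its group means ran from 8.03 to 9.12 CPM, and the cell type differences were -0.09 (95% interval -0.37 to 0.18, adjusted p = 0.658) and -0.04 (-0.31 to 0.23, adjusted p = 0.881) on the log2 scale.

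Mxd3 and Mlx, like Mxd4, carry a limit of the counting. Mxd3, a repressor known from dividing cells, meets Prelid1 on the opposite strand over 105 bases, and no use of strand is stated for the counting. Prelid1 had 176% of the Mxd3 count, and the log2 ratio of the 2 genes had an SD of 0.0228 over 16 libraries. The Pearson r of their log2 levels, with depth scaled out, was 0.922 over all libraries and 0.968 after group means were removed, the libraries being shared. Mxd3 levels of 137.3 to 159.5 CPM may therefore hold Prelid1 molecules and are uncertain. As counted, Mxd3 was not called in either cell type comparison (log2 fold change -0.05, adjusted p = 0.437, and 0.03, adjusted p = 0.733), and scaling by library totals would call it higher in N1-AcSpd HFSCs (0.14, adjusted p = 0.0175).

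Mlx, which pairs with MXD1, MXD4 and MNT as an alternative to MAX, overlaps Psmc3ip on the opposite strand over 385 bases. Psmc3ip had 97.8% of the Mlx count, but the pair was looser, with an SD of 0.16 for the log2 ratio and a Pearson r of 0.542 over 16 libraries. Psmc3ip was called higher in HFSCs in both conditions (log2 fold change 0.21, adjusted p = 0.00494, and 0.31, adjusted p = 0.000264), whereas Mlx was -0.04 (adjusted p = 0.614) and -0.02 (adjusted p = 0.874). Some molecules counted for Mlx may be those of Psmc3ip.

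**Figure D2:**
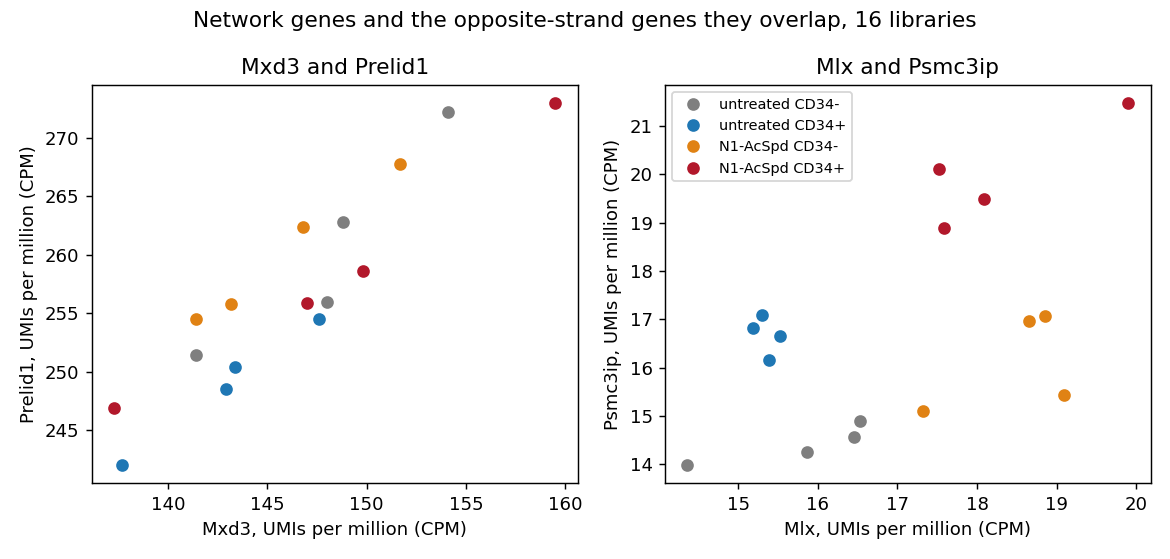
Level of Mxd3 against Prelid1 and of Mlx against Psmc3ip (both axes in CPM, axes not starting at 0), 1 point per library (n = 16), coloured by group. The Mxd3 and Prelid1 points lie near a single line (r = 0.922), whereas the Mlx and Psmc3ip points form separate groups (r = 0.542).

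Mycl and Mycn were near the limit of detection. Mycl had 5 UMIs over the 4 untreated progenitor libraries, 7 over the untreated HFSC libraries, 30 over the N1-AcSpd progenitor libraries and 11 over the N1-AcSpd HFSC libraries. Single N1-AcSpd progenitor libraries held 5, 13, 9 and 3 UMIs of Mycl, and untreated ones 0, 1, 2 and 2. In a fit with no filter Mycl was not called for treatment in progenitors (unadjusted p = 0.0336, adjusted p = 0.523). Mycn had 2, 6, 0 and 4 UMIs in the same order of groups, and no comparison called it (lowest adjusted p = 0.0901). At this depth Myc was the only MYC gene with enough molecules to compare groups.

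The Myc count was also set against the count of each called repressor within each library, as a log2 ratio that needs no scaling between libraries. These ratios follow from the gene values above and were not tested. The Myc to Mxd1 ratio was 2.74 ± 0.317 in untreated progenitors and 4.09 ± 0.238 in untreated HFSCs (mean ± SD, n = 4). After N1-AcSpd it was 2.44 ± 0.31 and 3.99 ± 0.251. The lowest HFSC library (3.67) lay above the highest progenitor library (3.03). The Myc to Mxd4 ratio ran the other way, with 1.06 ± 0.114 in untreated progenitors and 0.35 ± 0.144 in untreated HFSCs. After N1-AcSpd the Myc to Mxd4 ratio was 1.45 ± 0.103 and 0.81 ± 0.31. In both conditions every HFSC library lay below every progenitor library. Whether Myc stood higher or lower against a repressor in HFSCs thus depended on which repressor was taken.

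**Figure D3:**
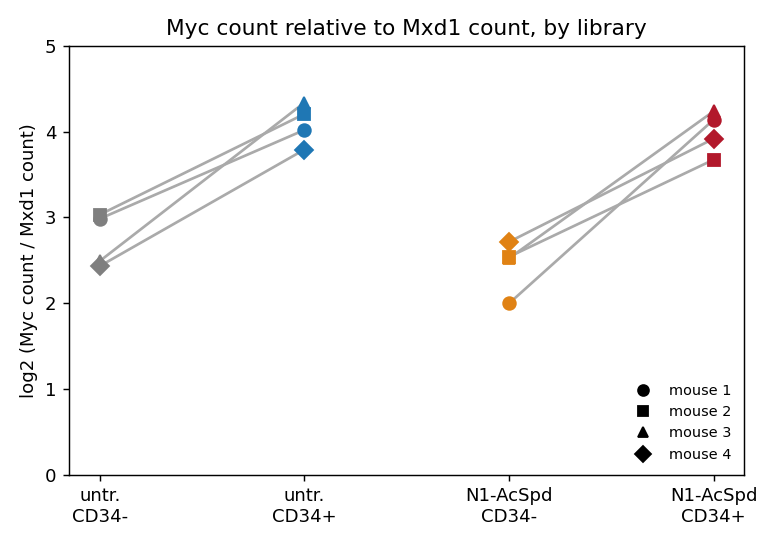
Log2 ratio of the Myc count to the Mxd1 count in each library, by group, with a grey line joining the CD34- and CD34+ libraries of each mouse within a condition. The same ratio to Mxd4, not plotted, has the opposite order. All 8 lines run upward, from progenitor values of 2.00 to 3.03 to HFSC values of 3.67 to 4.34.

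The second question was whether 72 h of N1-AcSpd changed the network within a cell type. No member was called in progenitors, beside 0.614% of all genes, and none in HFSCs, beside 0.325%. At an unadjusted p under 0.05 there were 3 of 8 members in progenitors (13.6% of all genes) and 3 of 8 in HFSCs (13.2% of all genes). With mouse as a block the calls over all genes went from 117 to 349 in progenitors and from 62 to 152 in HFSCs, and still included no member. DESeq2 called 1 member in each cell type, Mlx, beside 2.93% of all genes in progenitors and 2.26% in HFSCs.

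Mlx had the smallest p among the members in both cell types. In progenitors it went from 16.5, 14.4, 16.5 and 15.9 CPM to 17.3, 19.1, 18.9 and 18.7 CPM with N1-AcSpd. In HFSCs Mlx went from 15.5, 15.2, 15.4 and 15.3 CPM to 17.5, 17.6, 18.1 and 19.9 CPM. The treated libraries lay above the untreated ones in both cell types. The Mlx log2 fold changes were 0.22 (SE 0.0523, unadjusted p = 0.000786, adjusted p = 0.076 by edgeR and 0.031 by DESeq2, 4 of 4 mice) and 0.25 (SE 0.0524, unadjusted p = 0.000313, adjusted p = 0.0676 by edgeR and 0.0115 by DESeq2, 4 of 4 mice). Without the untreated CD34- library of mouse 2, edgeR also called Mlx in HFSCs (adjusted p = 0.0476). Psmc3ip, which shares the overlap, had log2 values of 0.16 and 0.26 in the same comparisons, and the part of shared molecules in the Mlx values was not tested.

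For Mxd1 the N1-AcSpd difference was 0.44 in progenitors (95% interval 0.12 to 0.76, unadjusted p = 0.00996, adjusted p = 0.193), with every treated library above every untreated one. In HFSCs it was 0.24 (-0.10 to 0.58, adjusted p = 0.581). For Myc the differences were 0.15 in both cell types (95% intervals -0.01 to 0.31, adjusted p = 0.386 and 0.423), higher with N1-AcSpd in 4 of 4 and 3 of 4 mice.

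Mxd4 was lower with N1-AcSpd in 4 of 4 mice of both cell types, with log2 fold changes of -0.23 (adjusted p = 0.432) and -0.30 (unadjusted p = 0.0279, adjusted p = 0.317). Mnt was -0.19 (adjusted p = 0.745) in progenitors and -0.47 (95% interval -0.87 to -0.07, unadjusted p = 0.025, adjusted p = 0.308) in HFSCs. Max was 0.20 (unadjusted p = 0.0271, adjusted p = 0.293) in progenitors and 0.11 (adjusted p = 0.654) in HFSCs. Mxi1 and Mxd3 stayed within 0.15 of 0 in all 4 values. None of these passed the test after adjustment.

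Whether N1-AcSpd altered the cell type difference was tested as an interaction. By edgeR it called no member and 0% of all genes, and at an unadjusted p under 0.05 no member beside 4.19% of all genes. DESeq2 called 71 genes and no member. The interaction values of the called members were -0.01 for Myc (95% interval -0.23 to 0.22), -0.20 for Mxd1 (-0.67 to 0.26) and -0.07 for Mxd4 (-0.43 to 0.30).

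**Figure D4:**
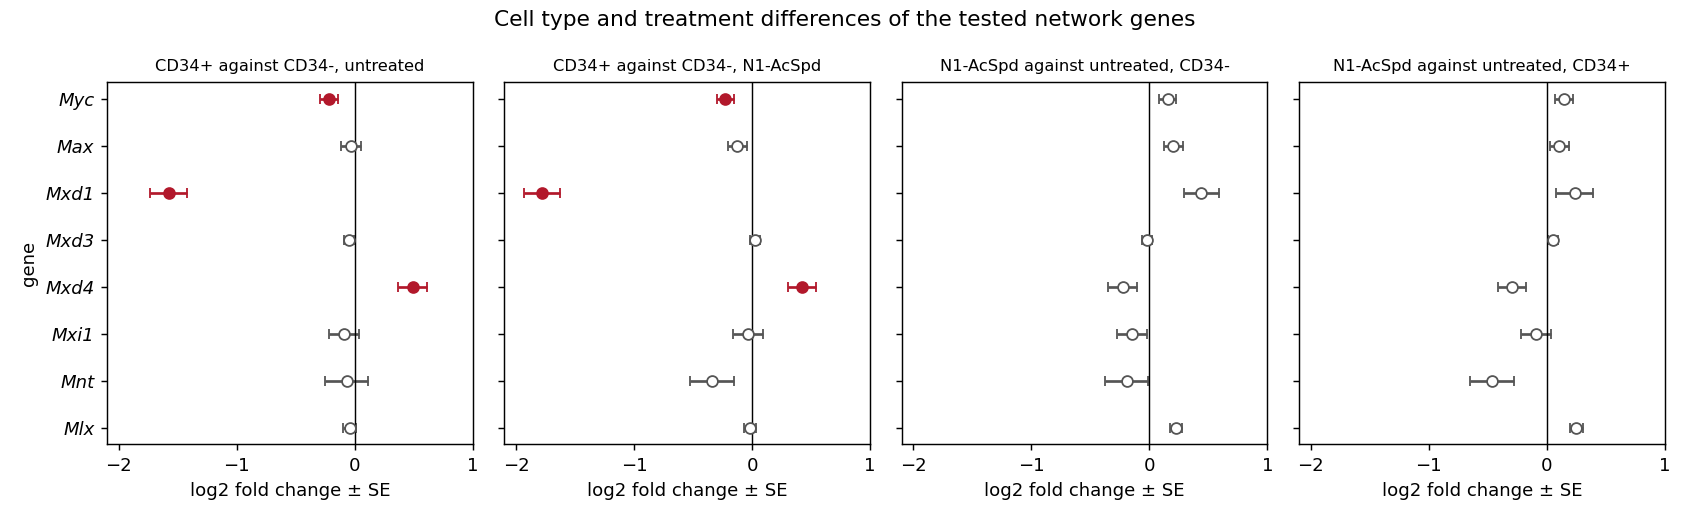
Log2 fold changes (points) with 1 standard error (bars) of the 8 tested network genes in the cell type and treatment comparisons, filled red where edgeR's adjusted p was under 0.05. Mxd1 stands at -1.58 and -1.78, Mxd4 at 0.49 and 0.42 and Myc at -0.22 and -0.23 in the cell type panels, and no point is filled in the treatment panels.

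The order of the group means was the same for Myc and Mxd1 within each cell type, N1-AcSpd above untreated, but the treated and untreated neighbours did not differ beyond the test. For Mxd4 the order was untreated HFSCs (28.7 ± 2.68 CPM), N1-AcSpd HFSCs (23.4 ± 3.83), untreated progenitors (20.4 ± 1.24) and N1-AcSpd progenitors (17.4 ± 2.47), again with no call between treated and untreated neighbours.

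Genes that MYC is known to activate were followed as a list of 57, all of them tested. In untreated cells 35 were called between the cell types, 32 lower and 3 higher in HFSCs, or 61.4% of the list beside 32.1% of all genes. The median log2 fold change was -0.21, beside 0.02 over all genes. After N1-AcSpd 36 were called, 32 lower and 4 higher, with a median of -0.23 beside -0.01. Scaling by library totals left 23 (18 lower) and 24 (19 lower) of the 57 called, where 34.8% and 35.2% of all genes were called, with list medians of -0.10 and -0.11 beside all-gene medians of 0.14 and 0.11. In untreated cells the list was led by Slc29a2, a nucleoside transporter (-0.86, adjusted p = 0.000284), Hk2, the glycolytic enzyme hexokinase 2 (-0.72, adjusted p = 0.00249), and Tfrc, the transferrin receptor (-0.63, adjusted p = 0.00554). After N1-AcSpd Hk2 averaged 29.3 CPM in HFSCs and 58.8 CPM in progenitors, Slc29a2 was at -0.69 (log2) and Rrp9, a ribosomal RNA processing factor, at -0.49. Sord, a polyol pathway enzyme, was instead called higher in HFSCs (0.74 and 1.01). Some targets overlap other genes, which had up to 289% of the target's count. Among the larger overlaps, the Pearson r after group means were removed ran from -0.31 to 0.999. No use of strand is stated for the counting, and the part of shared molecules in the list counts was not tested.

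The E-box stood in the promoter window of 16 of the 52 targets that had one (30.8%, beside 8.09% of all genes). Of the 16 targets with the E-box 9 were called lower in untreated HFSCs (median log2 fold change -0.19), and of the 36 without it 20 were (median -0.22). After N1-AcSpd 11 of the 16 and 18 of the 36 were called lower, with medians of -0.20 and -0.24, and the difference between these sets was not tested. Hspd1, a mitochondrial chaperonin, and Phb, a prohibitin of the inner mitochondrial membrane, had the most negative values among targets with an E-box, and their sites are shown for comparison with those of the members, with the E-box in capitals. Hspd1 (-0.39) overlaps another target, Hspe1, on the opposite strand, which had 210% of its count, and Phb (also -0.39) had no such neighbour.
Hspd1, chr1:55088301-55088340, minus strand: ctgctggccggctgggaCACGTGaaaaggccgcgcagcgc
Phb, chr11:95666708-95666747, plus strand: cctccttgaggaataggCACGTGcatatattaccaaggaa

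**Figure D5:**
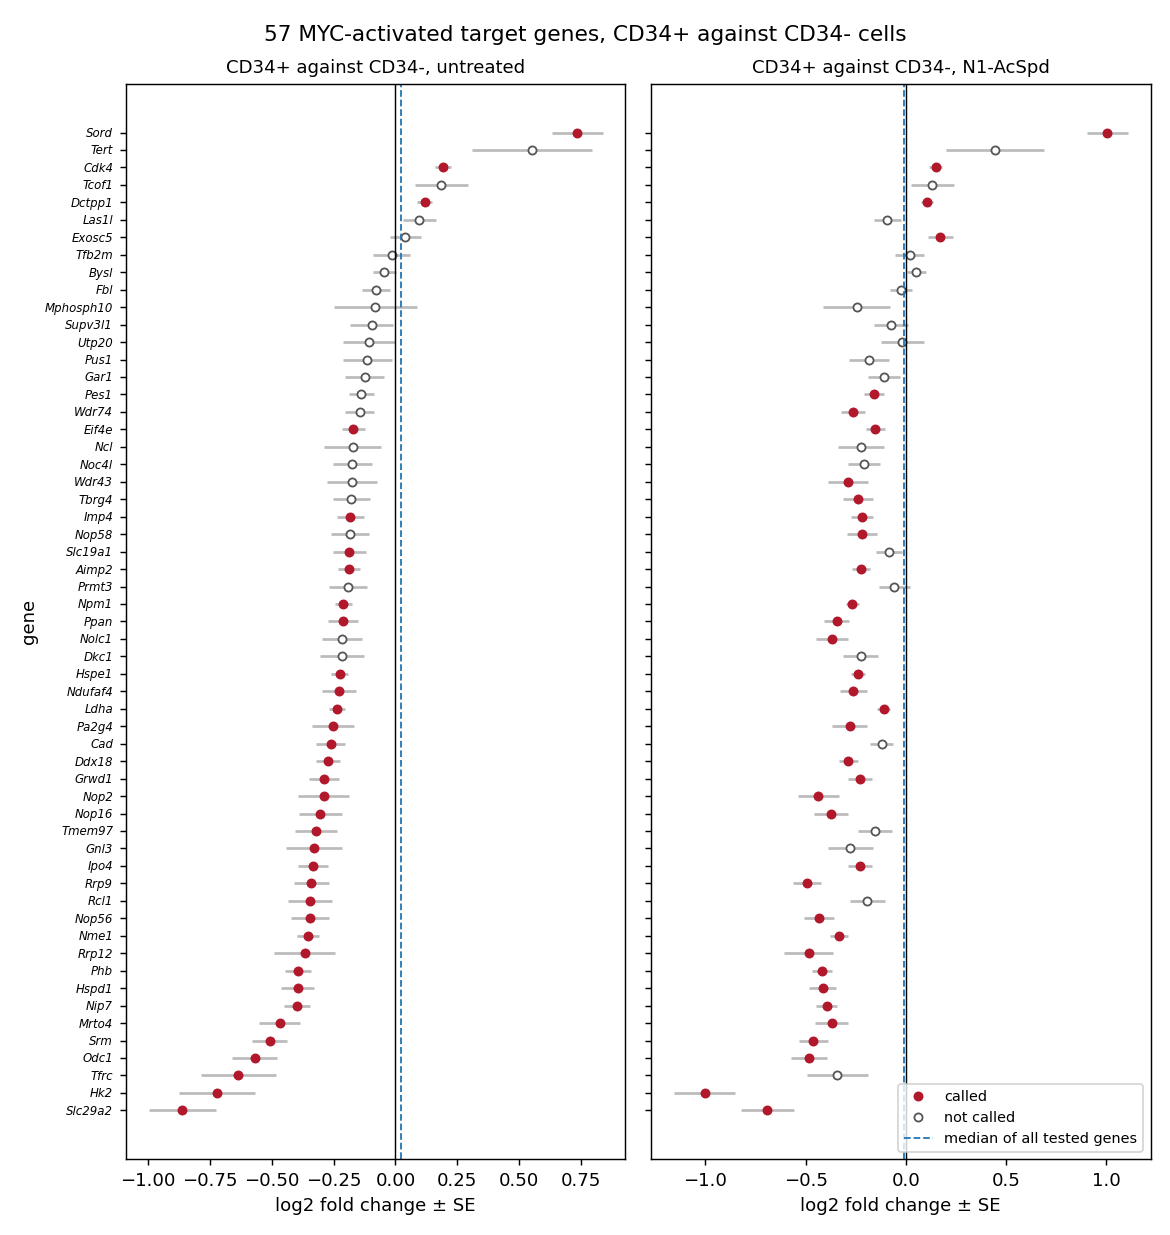
Log2 fold changes (points, bars of 1 standard error) of 57 MYC-activated targets in HFSCs against progenitors, untreated on the left and after N1-AcSpd on the right, ordered by the untreated value, filled red where called, with the median of all tested genes as a dashed line. Most points lie left of the dashed line, with 32 called lower in each panel and 3 and 4 called higher.

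Polyamine synthesis is the branch of MYC targets nearest to the treatment. Odc1 was lower in HFSCs by -0.57 (adjusted p = 0.000343) in untreated cells and -0.48 (adjusted p = 0.000984) after N1-AcSpd. Srm, spermidine synthase, was at -0.51 (adjusted p = 0.000113) and -0.46 (adjusted p = 0.000216). Sms, spermine synthase, was called lower at -0.26 and -0.27, and these calls did not hold with library totals (adjusted p = 0.205 and 0.141). Amd1, S-adenosylmethionine decarboxylase, was not called (-0.03, adjusted p = 0.78, and 0.01, adjusted p = 0.937). With N1-AcSpd, Amd1 was the only gene of the 4 called, at -0.31 in progenitors (adjusted p = 0.042). That call held in 5 of 20 leave-out fits (adjusted p from 0.0255 to 0.211, log2 fold change from -0.34 to -0.28), and in HFSCs the value was -0.27 (adjusted p = 0.0932).

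With TMM, most of the called genes that MYC is known to repress were also lower in HFSCs. Of 9 tested, 4 were called in untreated cells and 5 after N1-AcSpd, or 44.4% and 55.6% beside 32.1% and 33.3% of all genes. Of these, 3 and 4 were lower, and 1 in each condition was higher. The list medians were -0.32 and -0.17, beside 0.02 and -0.01 over all genes. With library totals 5 were called untreated, 2 of them higher, and 6 after N1-AcSpd, 3 of them higher. The gene called higher with TMM was Cdkn1b, the cell cycle inhibitor p27, at 1.01 in both conditions (adjusted p = 1.72e-05 and 1.37e-05). Cdkn2b, the inhibitor p15, was lower at -1.02 and -1.06, and Cdkn1a, the inhibitor p21, at -0.61 and -0.79. Cell cycle genes differed as well, with 11 of 13 S phase genes called higher in HFSCs in both conditions and 10 and 13 of 13 G2/M genes. Of all genes, 16.1% and 16.5% were called higher. The untreated G2/M count was 8 with DESeq2 size factors and 13 with library totals.

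The corepressors through which MXD proteins act differed in both directions. Of 11 genes (MXD corepressors with Zbtb17, the MYC partner MIZ1), 9 were called in each condition (81.8%, beside 32.1% and 33.3% of all genes), 6 higher and 3 lower in HFSCs. Sap30, a SIN3 complex subunit, was at 0.49 and 0.51. Rbbp4, a histone chaperone of the complex, was at 0.37 and 0.43, with an antisense gene model that had 96.5% of its count. Hdac1, the deacetylase, was lower at -0.58 (adjusted p = 6.9e-06) and -0.54 (adjusted p = 1.24e-05). With library totals 9 were called in each condition, 7 higher and 2 lower, where 34.8% and 35.2% of all genes were called, most of them higher.

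Sin3a, the scaffold that MXD proteins bind, was the only gene of that list called for treatment. It was lower with N1-AcSpd in progenitors (6.78 to 5.03 CPM, log2 fold change -0.43, adjusted p = 0.0125) and not called in HFSCs (-0.16, adjusted p = 0.401). The call was lost without the untreated CD34- library of mouse 1 (Sin3a adjusted p = 0.0539), the treated CD34- library of mouse 4 (0.06), or any 1 mouse (0.054 to 0.156). The antisense gene Man2c1os had 104% of the Sin3a count, with a Pearson r of 0.87 between their levels after group means were removed. No use of strand is stated for the counting, and some molecules counted for Sin3a may be those of Man2c1os.

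Of 11 MYC coactivators, 2 were called in untreated cells (18.2%, beside 32.1% of all genes) and 4 after N1-AcSpd (36.4%, beside 33.3%). Among them was Ep400, a chromatin remodeller, at 0.30 and 0.31, calls that were lost in 6 and 5 of 20 leave-out fits (highest adjusted p = 0.171 and 0.131). Of 14 genes of MYC protein turnover, 2 (14.3%) and 3 (21.4%) were called. Aurka, the mitotic kinase that shields MYCN from degradation, was the largest of the called genes, at 0.37 (adjusted p = 0.0171) and 0.69 (adjusted p = 0.000199). Both values lay within the range of the 13 G2/M genes, 0.275 to 0.83 untreated and 0.494 to 1.07 after N1-AcSpd. Mycn itself was near the limit of detection, and a part of Aurka in MYC protein turnover was not tested. The untreated Aurka call was lost in 5 of 20 leave-out fits (highest adjusted p = 0.159) and with only the compared groups (0.0627). Usp37, a deubiquitinase, was at -0.25 and -0.22, and neither call held with library totals (adjusted p = 0.1 and 0.207). Mga and Mlxip, the other network factors that could be tested, were not called in any comparison, and with library totals 1 of them was called higher in untreated HFSCs.

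With treatment, no MYC-activated target was called in either cell type by edgeR, while 19 of 57 in progenitors and 16 of 57 in HFSCs had an unadjusted p under 0.05, beside 13.6% and 13.2% of all genes. Their median log2 fold changes were 0.11 and 0.09, beside 0 and -0.01 over all genes. With mouse as a block 4 and 1 targets were called, where 1.83% and 0.798% of all genes were, and by DESeq2 5 and 6, where 2.93% and 2.26% were.

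The genes most like each called member over the 16 libraries were sought among 12419 tested genes averaging 50 or more UMIs (12418 for Mxd4). They are given as a description, since all points share libraries and group differences. For Myc they were Rsl24d1 (r = 0.951, and 0.864 after group means were removed), Nifk (0.947 and 0.839) and Gnpnat1 (0.942 and 0.843). For Mxd1 they were Crb3 (r = 0.989 and 0.814), Klk8 (0.988 and 0.704) and Gltp (0.984 and 0.694). For Mxd4 they were Ndufa11 (r = 0.953 and 0.85), Rsu1 (0.946 and 0.895) and Pdxdc1 (0.933 and 0.833).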

How the data were processed

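RNA of 16 libraries (4 groups of 4 mice) was measured by 3′ RNA-seq with UMIs. The deposited values are raw counts of unique UMI tags per gene. The authors demultiplexed the reads with FLEXBAR, pseudo-aligned the second read to mm10 with kallisto (0.45.0 in the submitters' processing notes, which also name FastQC 0.11.7) and assigned tags with BEDTools. The annotation release and any use of strand are not given in the sources used here. The 156050 empty cells were read as 0. No column belonged to other samples. Symbols and positions of 32927 identifiers came from GENCODE M21 on GRCm38 (mm10), and 62 were unmatched. Promoters are RefSeq's on GRCm38.p6.

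The 19049 genes averaging 5 or more UMIs entered edgeR 4.0.16 (R 4.3.3), with TMM scaling, 1 mean per group and no block. All p-values are two-sided. Standard errors were derived from the log2 fold change and its F statistic, and intervals are 95%. The study used DESeq2, with a design not given in the sources used here, and it was run here (1.42.0) as an alternative. Other alternatives were DESeq2 size factors, library totals, filterByExpr or no filter, mouse as a block, only the compared groups, thinning to the smallest library, and omitting every library or mouse in turn. Replicate numbers pair the libraries because the labels' mouse entry gives the same animal. The deviations from the group means of libraries from 1 mouse correlated at 0.034 on average (-0.118 to 0.162, 24 pairs). Libraries of different mice and groups correlated at -0.011 (-0.14 to 0.185, 72 pairs), a similar range. Intervals from counts cover counting error and the spread between 4 mice. No 2 libraries of a group agreed within sampling noise. The fit was tested on simulated data.

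The network genes and all lists were chosen with earlier results of these data known. All members were named. Of the other lists, called genes with the largest absolute fold change, at most 4 per list and comparison, could be named, with the 4 polyamine synthesis genes always. Hspd1 and Phb were added by the size of their values. 1 gene that this rule names is not reported here.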

Additional observations from a re-analysis of the deposited data

Results flagged for a closer look

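Of 39 sets of 4 libraries examined (the levels of each member in each group, without the set at 0 throughout), 1 held a library far from the others. Max in the N1-AcSpd progenitor library of mouse 2 stood at 19.7 CPM (555 UMIs), with the other 3 at 18.6 CPM, so that its gap to the nearest made up 0.98 of the range. The range itself was small, and chance alone marks about 1 in 20 such sets.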

How the results depend on the processing

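The number of members called was 3 between the cell types in both conditions and 0 for treatment and interaction. Fitting only the compared groups left 1 member (Mxd1) for the cell types after N1-AcSpd. DESeq2 called 1 member (Mlx) for treatment in progenitors and 1 in HFSCs, beside 2.93% and 2.26% of all genes. Across fits without 1 library or 1 mouse the counts ran from 1 to 3 for the cell types in untreated cells, from 1 to 3 after N1-AcSpd, stayed at 0 for treatment in progenitors and ran from 0 to 1 in HFSCs. The lowest count came without mouse 2. Of the members' log2 fold changes under all alternatives, 1078 kept their side of the threshold, 28 lost it, 6 gained it and 0 reversed. With mouse as a replicate block, the same 3 members were called in both conditions (Mxd1 -1.58 and -1.78) and no other, so the pairing changed no member's call. Without a low-count filter Myc lost its calls (adjusted p = 0.0651 and 0.0613). With library totals 4861 of 6623 called genes were higher in untreated HFSCs, against 3059 of 6123 with TMM, and 4792 of 6696 against 3147 of 6346 after N1-AcSpd. With no filter 35 genes were called for treatment in each cell type, against 117 and 62, and with DESeq2 558 and 431. Alternatives for genes of the other lists were added after the data were seen, and list counts were not recomputed without single libraries. Low counts limit Mnt, Mycl and Mycn, and the overlaps limit Mxd3, Mlx and Mxd4. Overlaps also limit some genes of the other lists, and so the list counts.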
